A study of Mus musculus with 18 samples.

Results

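The small proline-rich (Sprr) genes were followed through sorted epidermal cells of a mouse model of psoriasis-like disease. The family was taken as the 10 rows of the expression table named Sprr1a, Sprr1b, Sprr2b, Sprr2d, Sprr2e, Sprr2f, Sprr2h, Sprr2i, Sprr3 and Sprr4, out of 23951 genes. The measurements were RNA-seq levels in FPKM, a read count scaled to transcript length and to the reads of the library, in 18 libraries of 3 mice in each of 6 groups. In DKO* mice on a mixed background, both floxed alleles of JunB and c-Jun (JunB f/f c-Jun f/f) can be deleted by K5-Cre-ERT, a tamoxifen-activated Cre under a promoter of basal keratinocytes, and the mT/mG reporter turns recombined cells from membrane Tomato to membrane GFP. GFP populations are called mutant and Tom populations non-mutant, so reporter colour stands in for deletion, and Tom cells share the skin of a diseased animal. Control mice (Co) carried K5-Cre, the mT/mG reporter and wild-type or heterozygous (+/f) JunB and c-Jun. Mice were of both sexes, 8 weeks old, and were given 4 daily intraperitoneal injections of 2 mg tamoxifen, and cells were taken from ear epidermis at day 7. Bulge hair follicle stem cells (HF-SCs, CD45- CD49f high CD34+) and basal keratinocytes (b-KCs, CD45- CD49f high CD34-) of control mice 810, 825 and 828 gave the Co groups. DKO* mice 814, 815 and 817 each gave 4 libraries, a GFP and a Tom fraction of either cell type.

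Small proline-rich proteins are precursors of the cornified envelope, the layer of cross-linked protein that replaces the membrane of a dying keratinocyte. Transglutaminases join them to partners such as involucrin and loricrin, and the short proline-rich repeats act as flexible bridges between those partners. The genes belong to the epidermal differentiation complex, are normally expressed in differentiating rather than basal cells, and are known to be switched on in wounded and inflamed skin. c-Jun and JunB are subunits of the AP-1 transcription factor, which is known to act at Sprr promoters.

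All 10 genes lie within a stretch of mouse chromosome 3 (NCBIM37, the assembly that the study's methods name for the alignment, also called mm9). From Sprr2b (chr3:92120627-92122007) to Sprr2i (chr3:92211913-92213193) the Sprr2 members follow each other on the plus strand, and Sprr1b (chr3:92240731-92242701), Sprr3 (chr3:92260697-92261539), Sprr1a (chr3:92287877-92289816) and Sprr4 (chr3:92304185-92304415) lie beyond them on the minus strand. The Sprr2 genes are paralogs. Their GENCODE transcripts were 77.1% to 86.3% identical over aligned bases in the 15 pairs of the 6 Sprr2 members. The following 51 bases, the length of 1 read, lie in the coding sequence of Sprr2d and were found without a mismatch in Sprr2e and Sprr2i as well, and are shown because such a read cannot be given to 1 gene.
Sprr2d, Sprr2e and Sprr2i: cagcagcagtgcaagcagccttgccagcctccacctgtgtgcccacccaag
Of the 51-base windows of Sprr2d, 4.12% also occurred exactly in another Sprr transcript, and the share was 7.86% in Sprr2b, 9.72% in Sprr2e, 10.2% in Sprr2i, 0.54% in Sprr2f and 0 in Sprr2h. With up to 2 mismatches, as the alignment allowed, the shares ran from 5.70% in Sprr2h to 36.0% in Sprr2i. No window of Sprr1a, Sprr1b, Sprr3 or Sprr4 was shared at either setting, and no member had an exact window in a gene outside the family. The split of reads among Sprr2 rows is therefore uncertain, and their sum is given beside the single rows. Of 649 windows of Sprr2b, 209 lay within 2 mismatches of another Sprr transcript. Among the members only 1 window matched Sprr2d and 14 matched Sprr2h in this way. Most of its sharing is thus with Sprr transcripts outside the 10, which the sum does not cover.

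The 250 bases before the RefSeq start of each gene are shown for 4 members that differ in their response below, Sprr2d, called in all 4 comparisons of DKO* cells with Co, Sprr1a, called in those of HF-SCs but not of b-KCs, Sprr4, called in none, and Sprr3, too low to be tested. They were taken from RefSeq's GRCm38.p6 promoters and placed on NCBIM37 by an exact match, at chr3:92142812-92143061 (plus strand) for Sprr2d, chr3:92289804-92290053 (minus) for Sprr1a, chr3:92262643-92262892 (minus) for Sprr3 and chr3:92304416-92304665 (minus) for Sprr4. Capitals mark the AP-1 letters TGANTCA, the octamer ATTTGCAT and the TATA box TATAAA.
Sprr2d: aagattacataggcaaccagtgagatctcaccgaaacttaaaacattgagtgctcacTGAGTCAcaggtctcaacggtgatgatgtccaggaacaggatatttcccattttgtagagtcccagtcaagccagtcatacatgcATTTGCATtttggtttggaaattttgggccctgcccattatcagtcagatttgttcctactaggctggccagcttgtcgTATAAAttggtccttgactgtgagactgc
Sprr1a: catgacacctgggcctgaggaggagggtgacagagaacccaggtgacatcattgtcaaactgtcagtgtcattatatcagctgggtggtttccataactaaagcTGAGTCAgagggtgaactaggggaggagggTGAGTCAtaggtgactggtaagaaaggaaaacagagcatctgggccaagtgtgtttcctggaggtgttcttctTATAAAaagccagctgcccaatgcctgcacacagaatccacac
Sprr3: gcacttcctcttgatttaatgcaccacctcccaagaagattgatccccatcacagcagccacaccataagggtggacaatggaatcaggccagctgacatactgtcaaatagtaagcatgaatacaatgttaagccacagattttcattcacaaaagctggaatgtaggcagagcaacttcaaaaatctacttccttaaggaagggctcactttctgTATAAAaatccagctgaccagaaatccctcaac
Sprr4: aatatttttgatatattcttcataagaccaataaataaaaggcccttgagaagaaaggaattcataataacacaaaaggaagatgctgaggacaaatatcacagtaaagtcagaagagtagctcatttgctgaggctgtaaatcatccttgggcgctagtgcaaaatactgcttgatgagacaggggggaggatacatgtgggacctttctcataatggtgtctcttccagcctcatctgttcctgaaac

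The letters TGANTCA, searched on both strands, were present in the 250 bases of 8 of the 10 members and in 6.7% of 32851 RefSeq promoters of that length. The 8 were Sprr1a, Sprr1b and the 6 Sprr2 members. The 250 bases of the 6 Sprr2 genes were 66.9% to 90.3% identical in pairs over aligned bases. Their matches of this and the other motifs are therefore not independent, and counts of members beside the share of all promoters are descriptions. The windows below show those letters in capitals with 10 bases on either side, because these 8 genes hold them. The 250 bases shown for Sprr3 and Sprr4 do not. Sprr4 is annotated in GENCODE as 1 exon of 231 bases that begins next to its window. Its promoter may therefore lie elsewhere, and letters absent from that window, TATAAA included, are no evidence about it.
Sprr1a, from base 146 before the start: taactaaagcTGAGTCAgagggtgaac
Sprr1a, from base 116: gggaggagggTGAGTCAtaggtgactg
Sprr1b, from base 111: gcacctaggaTGAATCAtgtctgacag
Sprr2b, from base 195: aaaggactctTGAGTCAcaagactcaa
Sprr2d, from base 193: gagtgctcacTGAGTCAcaggtctcaa
Sprr2e, from base 193: gagtgctcacTGAGTCAcaggtctcaa
Sprr2f, from base 197: aactgaatatTGAGTCAcagtgctcaa
Sprr2h, from base 198: ggatggtctcTGAGTCActgcacttta
Sprr2i, from base 193: aagggctcacTGAGTCAcaggactgaa
In the Sprr2 genes the letters began 193 to 198 bases before the start, and the windows of Sprr2d and Sprr2e were identical. The octamer ATTTGCAT was present in the 6 Sprr2 members and in none of the others, against 1.6% of all promoters, and was added to the search after the sequences were read. TATAAA was present in 9 members, all but Sprr4, against 12.4% of promoters. The Ets core AGGAAG was present in 3 members (Sprr2f, Sprr3 and Sprr4; 29.5% of promoters), the Klf letters CACCC in 4 (52.0%), and the STAT letters TTCNNNGAA in 0 (7.0%). In Sprr1a a Klf match overlaps an AP-1 match. These are matches of letters, and the data hold no measurement of binding.

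**Figure D1:**
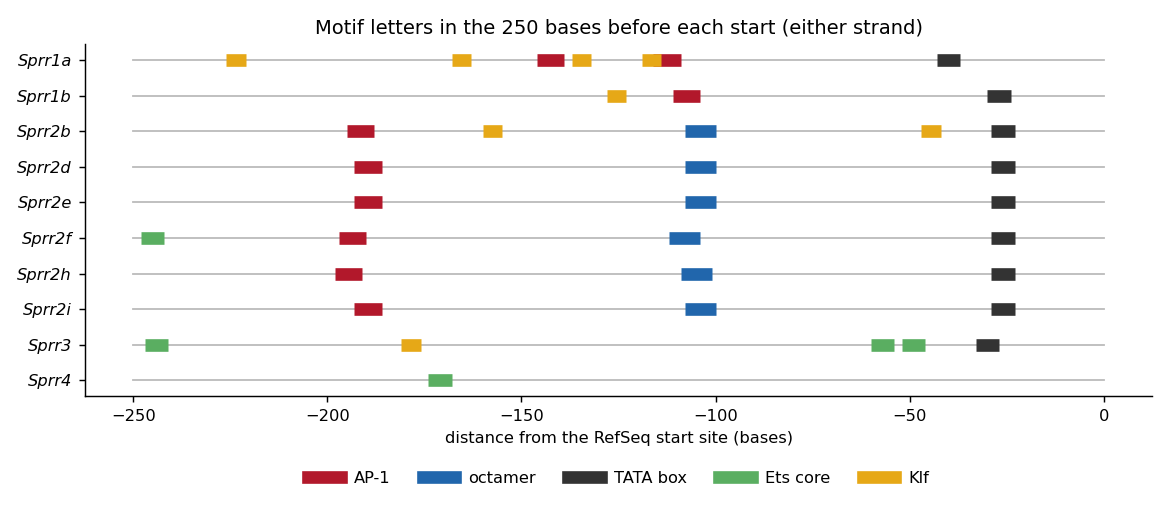
Positions of motif letters in the 250 bases before the RefSeq start of each Sprr member; the horizontal axis is the distance from the start in bases, each grey line is 1 gene and each block is 1 match on either strand. AP-1 letters (red) are present in 8 of 10 genes and the octamer (blue) in the 6 Sprr2 genes, at nearly the same distance from the start.

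Depth was not given with the values. The steps between low values in 3659 genes with 1 annotated transcript correspond to 16500000 to 26250000 reads per library, with 79.5% to 84.4% of low values within 0.1 of a whole read, so that 3 reads on a transcript of 700 bases would give 0.163 to 0.26 FPKM. This covers counting error only. Jun was at 836 to 1086 FPKM in the control libraries and at 29.6 to 88.4 in the GFP libraries, and Junb at 436 to 772 and 37.2 to 77.5. In Tom libraries Jun was at 163 to 614 and Junb at 208 to 402. Of the marker genes, Krt15 was listed at exactly 0 in 1 HF-SC Co library beside at least 11300 FPKM in the others, and Krt14 in 1 b-KC GFP library and 2 b-KC Tom libraries beside at least 6840 in the others. Such zeros can be failed estimates, and no member and no gene of another list named here had a 0 beside 10 FPKM or more in its group. Without Krt14, the 5 other basal keratinocyte markers summed to 4850 to 5480 FPKM in HF-SC Co, above the 3090 to 3890 of HF-SC GFP and the 3250 to 4480 of HF-SC Tom, and to 6230 to 6800 in b-KC Co, 3120 to 6310 in b-KC GFP and 4630 to 8260 in b-KC Tom, and of all 6 none was called in HF-SCs of either fraction against Co and 1 was called lower in b-KC GFP. Without Krt15, the 7 other bulge markers summed to 1220 to 1550 FPKM in HF-SC Co and 55.5 to 63.5 in b-KC Co, and 6 of the 8 bulge markers were called lower in b-KC Co than in HF-SC Co, Cd34 by a log2 fold change of -8.24 ± 0.35 (limma, adjusted p = 1.28e-10). Markers of cell types also moved with the DKO* groups, and their part in the Sprr levels was not tested. Those 7 bulge markers summed to 343 to 498 in HF-SC GFP and 381 to 588 in HF-SC Tom, below HF-SC Co, with 0 and 1 of the 8 called lower. The 4 sebocyte markers in the table summed to 321 to 423 in b-KC Co, 93.1 to 124 in b-KC GFP and 65.7 to 90.3 in b-KC Tom, and to 41.4 to 48.5, 53.2 to 227 and 25.2 to 77.2 in the HF-SC groups in the same order. The 6 endothelial markers summed to 364 to 1110 FPKM in HF-SC Tom, to 0.874 to 63.3 in the other HF-SC groups and to 0.34 to 5.19 in b-KCs. The 5 melanocyte markers summed to 3.68 to 5.98 in HF-SC Co, 7.32 to 17.7 in HF-SC GFP, 3.59 to 10.2 in HF-SC Tom and 2.19 to 5.42 in b-KCs. The 9 leukocyte markers in the table summed to 2.44 to 3.68 in Co and 7.85 to 20.2 in DKO* libraries. No marker of any list was at 0 in all 3 libraries of a group.

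In control HF-SCs the Sprr1 genes had the highest group means of the 10 members. Sprr2b, Sprr2f and Sprr2i never exceeded 1 FPKM in any of the 6 control libraries, and Sprr2d, the most abundant member in all 12 DKO* libraries, stayed at or below 5.50. In DKO* mice 8 members had group means above those of Co in both cell types and both fractions, and for the 6 Sprr2 members every DKO* library was above every control library of the same cell type, as in 11.2% of all genes tested. A gene was called where limma, on log2(FPKM + 1) and with Benjamini-Hochberg adjustment over the 12751 genes that reached 1 FPKM in at least 3 libraries, gave an adjusted p under 0.01 and a log2 fold change of at least 2 in size. On this scale the fold change of genes near 0 is understated. Of the 10 members 9 passed the filter and Sprr3 did not. The 4 members Sprr2b, Sprr2e, Sprr2f and Sprr2i passed only through DKO* libraries and so had to differ, and counts over the members that passed are descriptions. In bulk samples more cells with a transcript and more transcript per cell cannot be told apart.

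**Figure D2:**
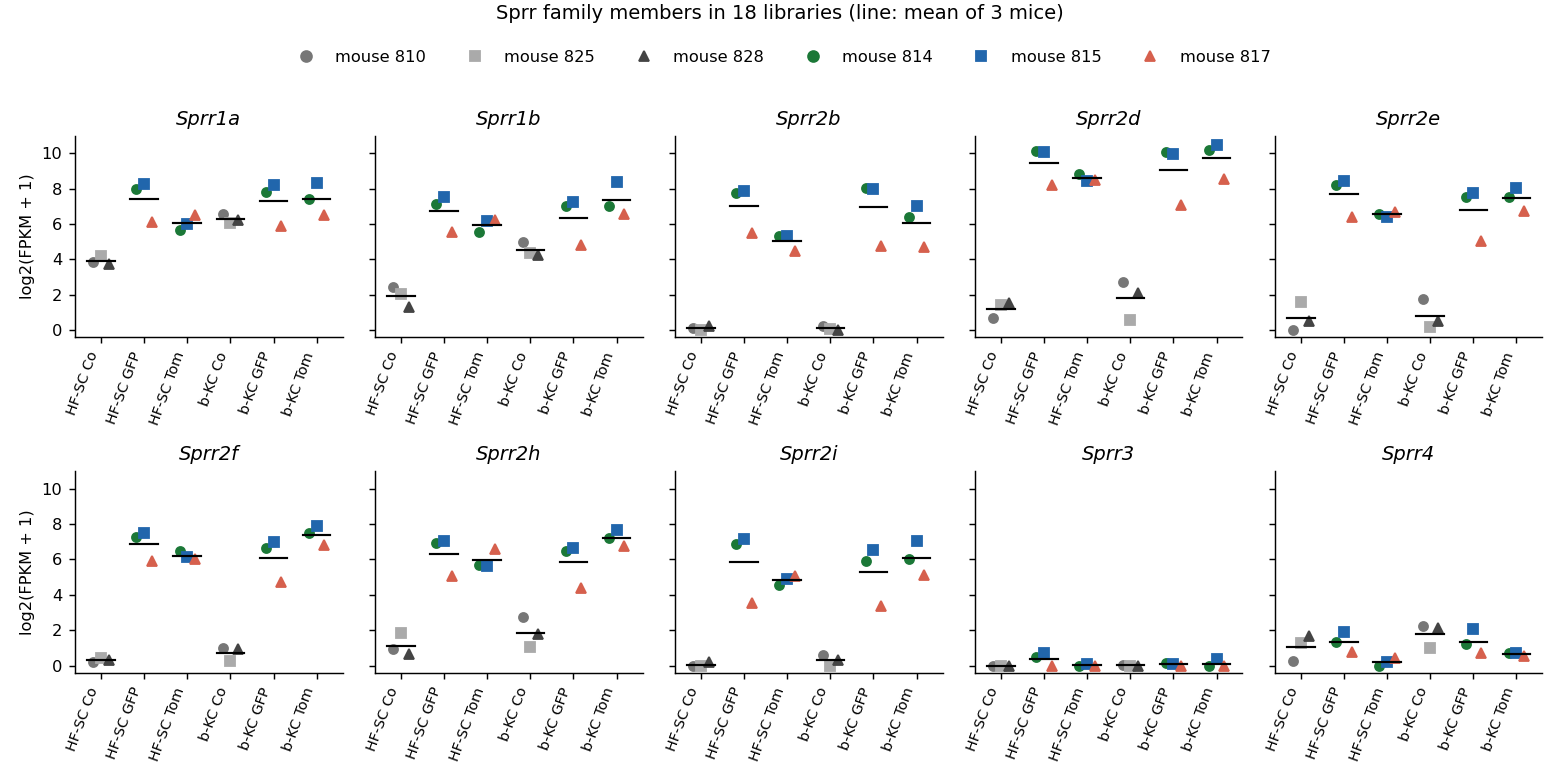
Level of each Sprr member as log2(FPKM + 1) (vertical axis) in the 6 groups (horizontal axis); each point is 1 library, marked by mouse, and each line is the mean of 3 mice. Sprr2b, Sprr2f and Sprr2i stay under 1 FPKM in Co and the other Sprr2 genes at or under 5.77, and all DKO* points of the 6 genes lie above the Co points of the same cell type, Sprr1a and Sprr1b are already present in b-KC Co, Sprr3 stays near 0, and mouse 817 is the lowest of the GFP points for the 8 members with group means above Co.

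In mutant HF-SCs 8 of 10 members were called higher than in HF-SC Co, where 2.43% of all genes tested were called higher. The median log2 fold change was 5.79 over the 9 members tested and -0.05 over all genes. The 7 suprabasal keratinocyte markers in the table mark the cells where these genes are normally expressed. They summed to 1110 to 1370 FPKM in HF-SC Co, 2150 to 4680 in the GFP and 2010 to 2680 in the Tom fraction. Of the 7, 2 were called higher in GFP and 1 in Tom, and 0 lower in either. In HF-SC Tom the log2 fold changes of Krt1, Krtdap, Ivl and Calm4 were positive and those of Krt10, Lor and Sbsn negative. In b-KCs the same sum was 9810 to 12100 in Co, above its 6340 to 9680 in GFP and 4880 to 8690 in Tom. There 1 of the 7 was called lower in each fraction and 0 higher. The part of these cells in the Sprr levels was not tested. Sprr1b, Sprr2d, Sprr2e and Sprr2f were picked for display from these same libraries by the study, so their direction is not independent evidence. Sprr2d was at 0.64, 1.65 and 1.93 FPKM in HF-SC Co and at 1102, 1071 and 298 in HF-SC GFP of mice 814, 815 and 817. The GFP mean was 585 times the Co mean, the 3 GFP libraries lay far above the 3 Co libraries, and the log2 fold change was 8.24 ± 0.75 (SE, n = 3 mice a group; limma, adjusted p = 8.56e-07), the fourth highest of 12751 genes. Sprr2e was at 0, 1.99 and 0.44 in Co and 299.8, 351 and 84.6 in GFP, a log2 fold change of 7.00 ± 0.68 (limma, adjusted p = 1.37e-06). Sprr2b, with 1 Co library at 0 and the others at or under 0.18, was at 219, 233 and 44.1 in GFP. Its control levels were about 3 reads' worth or less, so no ratio is given, and its fitted log2 fold change was 6.94 ± 0.78 (limma, adjusted p = 6.24e-06).

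In the remaining Sprr2 rows mouse 817 was again the lowest. Sprr2f, at 0.16 to 0.35 FPKM in Co, rose to 153, 179.7 and 58.7 in GFP, with a log2 fold change of 6.56 ± 0.49 (limma, adjusted p = 1.34e-07). Sprr2h, the Sprr2 row that shares the fewest windows with its paralogs, was at 0.55 to 2.58 in Co and rose to 119, 130.3 and 32.3 in GFP, 69.7 times the Co mean. Sprr2i was at 0 in 2 of 3 Co libraries and at 0.13 in the other, and at 118, 139.8 and 10.6 in GFP (log2 fold change 5.79 ± 0.83; limma, adjusted p = 6.16e-05). In all 3 genes mouse 817 was the lowest GFP library and still above every Co library.

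The Sprr1 genes, which were not silent in the controls, rose by smaller factors. Sprr1a was at 13.3, 17.4 and 12.4 FPKM in HF-SC Co and at 248, 303 and 67.1 in HF-SC GFP, 14.3 times the Co mean (log2 fold change 3.50 ± 0.59; limma, adjusted p = 2.62e-04). Sprr1b was at 4.40, 3.20 and 1.501 in Co and at 142, 182 and 46.4 in GFP, 40.7 times the Co mean (4.80 ± 0.62; limma, adjusted p = 2.39e-05). The groups did not overlap for either gene.

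Sprr4, which lies at the end of the cluster next to Sprr1a, did not follow. Its levels were 0.21, 1.39 and 2.13 FPKM in HF-SC Co and 1.55, 2.71 and 0.73 in HF-SC GFP, and the groups overlapped. The log2 fold change was 0.28 with a 95% interval from -0.58 to 1.15 (limma, adjusted p = 0.611). Sprr3, a family member of internal stratified epithelia, was listed at 0 in all HF-SC Co libraries and at 0.41, 0.62 and 0 in HF-SC GFP. In the other groups it reached at most 0.28 FPKM, near the level of a few reads, and it was not tested.

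Non-mutant HF-SCs from the same mice also had 8 of 10 members called higher than HF-SC Co, where 3.61% of all genes were called higher. The median log2 fold change of the 9 members tested was 4.83, against -0.04 for all genes. The Tom and GFP groups share the Co libraries, so the comparisons are not independent of each other. Sprr2d was at 448, 345 and 365 FPKM in HF-SC Tom of mice 814, 815 and 817, 274 times the Co mean (log2 fold change 7.36 ± 0.75; limma, adjusted p = 2.01e-06). Sprr2e was at 94.7, 84.2 and 99.9, Sprr2f at 86.6, 69.5 and 63.2 and Sprr2h at 50.3, 48.1 and 96.1. The spread between mice was smaller than in the GFP fraction, and mouse 817 was not the lowest for Sprr2d, Sprr2e or Sprr2h.

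Sprr2b was at 38.7, 38.7 and 21.4 FPKM in HF-SC Tom, a log2 fold change of 4.93 ± 0.78 (limma, adjusted p = 1.19e-04). Sprr2i was at 22.3, 29.3 and 32.6 (4.78 ± 0.83; limma, adjusted p = 2.63e-04). Sprr1b was at 45.3, 70.2 and 74.4, 20.9 times the Co mean (4.03 ± 0.62; limma, adjusted p = 9.34e-05). These Tom libraries were above every Co library. Sprr1a was at 50.2, 62.1 and 90.8, 4.71 times the Co mean, and its log2 fold change of 2.13 ± 0.59 was just past the threshold (limma, adjusted p = 0.00867). That call was lost when any of the 6 mice was left out, with log2 fold changes of 1.90 to 2.32 and adjusted p from 2.01e-05 to 0.0411. Without mouse 817 it was the fold change of 1.90 that missed the threshold, and without each of the others the p. Sprr4 was at 0, 0.16 and 0.34 (-0.85, 95% interval -1.72 to 0.02; limma, adjusted p = 0.105). HF-SC Tom is also the group with the high endothelial sum given above, and in b-KC Tom, where that sum was 1.52 to 5.19 FPKM, each Sprr2 row had a higher mean than in HF-SC Tom. The part of these cells was not tested.

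In mutant b-KCs 6 of 10 members, the 6 Sprr2 genes, were called higher than in b-KC Co, where 1.29% of all genes were called higher. The median log2 fold change of the 9 members tested was 4.97, against -0.03 for all genes. Sprr2d was at 5.50, 0.52 and 3.38 FPKM in b-KC Co and at 1074, 1001 and 134 in b-KC GFP, 235 times the Co mean (log2 fold change 7.23 ± 0.75; limma, adjusted p = 7.61e-06). Sprr2b was at 0.18, 0.06 and 0 in Co and 267, 252.5 and 26.2 in GFP (6.83 ± 0.78; limma, adjusted p = 1.76e-05). Sprr2e was at 2.40, 0.14 and 0.45 in Co and 182, 213 and 32.1 in GFP (5.94 ± 0.68; limma, adjusted p = 1.73e-05). All GFP libraries lay above all Co libraries for these genes, mouse 817 again lowest.

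Sprr2f, at 0.22 to 0.99 FPKM in b-KC Co, rose to 99.5, 124 and 25.0 in GFP. Sprr2h, at 1.06 to 5.77 in Co, rose to 88.9, 101 and 19.8, and Sprr2i, at 0 to 0.49, rose to 59.4, 90.5 and 9.30. Their log2 fold changes were 5.38 ± 0.49, 3.99 ± 0.63 and 4.97 ± 0.83. The Sprr1 genes were not called. Sprr1a was at 94.1, 66.2 and 75.0 in Co and at 223, 301 and 58.9 in GFP, and Sprr1b at 30.5, 19.3 and 17.98 in Co and 127, 153 and 27.2 in GFP. Mouse 817 was below every control library for Sprr1a and within their range for Sprr1b, while mice 814 and 815 were above every control library for both genes. The log2 fold change was 1.02 (95% interval -0.24 to 2.27; limma, adjusted p = 0.177) for Sprr1a and 1.84 (0.52 to 3.16; adjusted p = 0.0273) for Sprr1b. Without mouse 817 Sprr1b was called, with 2.61 (limma, adjusted p = 7.22e-05).

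Non-mutant b-KCs had 7 members called higher than b-KC Co, where 1.25% of all genes were called higher, the 6 Sprr2 genes and Sprr1b. The median log2 fold change of the 9 members tested was 5.77, against -0.02 for all genes. Sprr2d reached its highest values here, 1174, 1397 and 370 FPKM in mice 814, 815 and 817, 313 times the Co mean and the third highest log2 fold change of 12751 genes (7.92 ± 0.75; limma, adjusted p = 2.04e-06). Sprr2e was at 186, 265 and 107, Sprr2f at 180.0, 234 and 113 and Sprr2h at 148, 204 and 109. All Tom libraries of these 3 genes lay above all Co libraries.

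Sprr2b was at 83.1, 128 and 25.5 FPKM in b-KC Tom (log2 fold change 5.93 ± 0.78; limma, adjusted p = 3.16e-05) and Sprr2i at 64.0, 129.8 and 34.2 (5.77 ± 0.83; adjusted p = 6.66e-05). Sprr1b was at 131, 338 and 92.9, 8.30 times the Co mean (2.81 ± 0.62; limma, adjusted p = 0.00194), and its call was lost without mouse 815, 825 or 828 (2.28 to 2.72; adjusted p 0.0125 to 0.0171). Sprr1a was at 170.0, 315 and 92.1, where 92.1 overlapped the highest control library at 94.1 (1.12, 95% interval -0.13 to 2.38; limma, adjusted p = 0.131). Sprr4 was at 3.73, 0.96 and 3.39 in Co and at 0.61, 0.66 and 0.44 in b-KC Tom, all below the Co libraries, but its log2 fold change was -1.13 ± 0.41 and was not called (limma, adjusted p = 0.0330). In b-KC GFP Sprr4 was at 1.31, 3.24 and 0.61, which overlapped the Co libraries, with mouse 817 below them (-0.45; limma, adjusted p = 0.388).

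**Figure D3:**
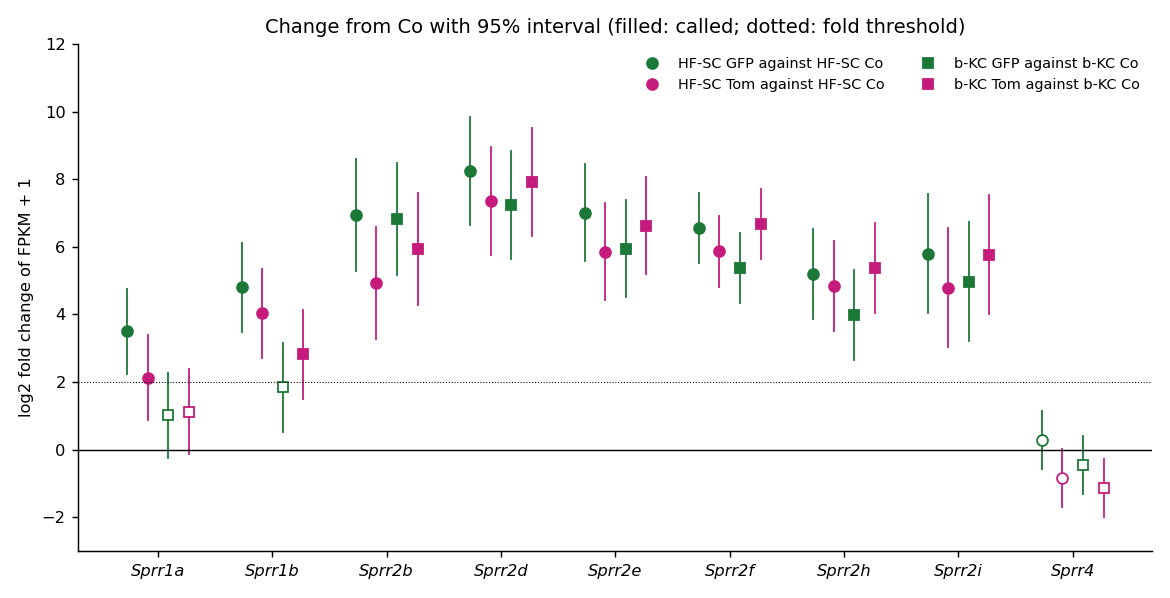
Log2 fold change of FPKM + 1 from Co (vertical axis) for the 9 members tested (horizontal axis) in HF-SC and b-KC GFP and Tom; bars are 95% intervals from limma, filled points were called and the dotted line is the fold threshold of 2. The 6 Sprr2 genes lie between 3.99 and 8.24 in all 4 comparisons, Sprr1a and Sprr1b are lower in b-KCs, and the Sprr4 points lie between -1.13 and 0.28.

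Summed over the 6 Sprr2 members, which removes the split of reads between paralogs among them, HF-SC Co libraries held 1.79, 6.57 and 3.50 FPKM and b-KC Co libraries 15.3, 2.0 and 7.39. In HF-SCs the sum was 2010, 2105 and 529 in GFP and 740.1, 615 and 679 in Tom. In b-KCs it was 1772, 1782 and 246 in GFP and 1836, 2358 and 758 in Tom. The log2 ratio of means to Co was 8.61 for GFP and 7.42 for Tom in HF-SCs, and 7.26 for GFP and 7.65 for Tom in b-KCs. No DKO* library came near the control range, however the reads are split among the 6 members. Adding the 5 other Sprr2 rows of the table (Sprr2a1, Sprr2a2, Sprr2g, Sprr2j-ps and Sprr2k) gave log2 ratios of 8.43, 7.24, 6.99 and 7.44.

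Sprr2d was the largest of the 6 Sprr2 rows in every DKO* library, and the order of the others differed between the GFP and Tom fractions. Sprr2d gave 48.8% to 64.0% of the summed Sprr2 FPKM in the 12 DKO* libraries. Sprr2e gave 10.1% to 16.7%, Sprr2f 5.62% to 14.9% and Sprr2i 2.0% to 6.64%. The share of Sprr2b was 8.34% to 15.1% in the 6 GFP libraries and 3.16% to 6.30% in the 6 Tom libraries, without overlap. By mean share Sprr2b came second in b-KC GFP (13.3%, with Sprr2e at 11.8%) and last in b-KC Tom (4.44%, with Sprr2i at 4.50%). The share of Sprr2h was 15.7% to 53.2% in the 6 control libraries and 5.02% to 14.4% in the 12 DKO* libraries. The control shares rest on summed levels of 1.79 to 15.3 FPKM, so they are imprecise. These shares are descriptions and were not tested, and reads of Sprr2b may be confused with those of Sprr transcripts outside the 10.

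**Figure D4:**
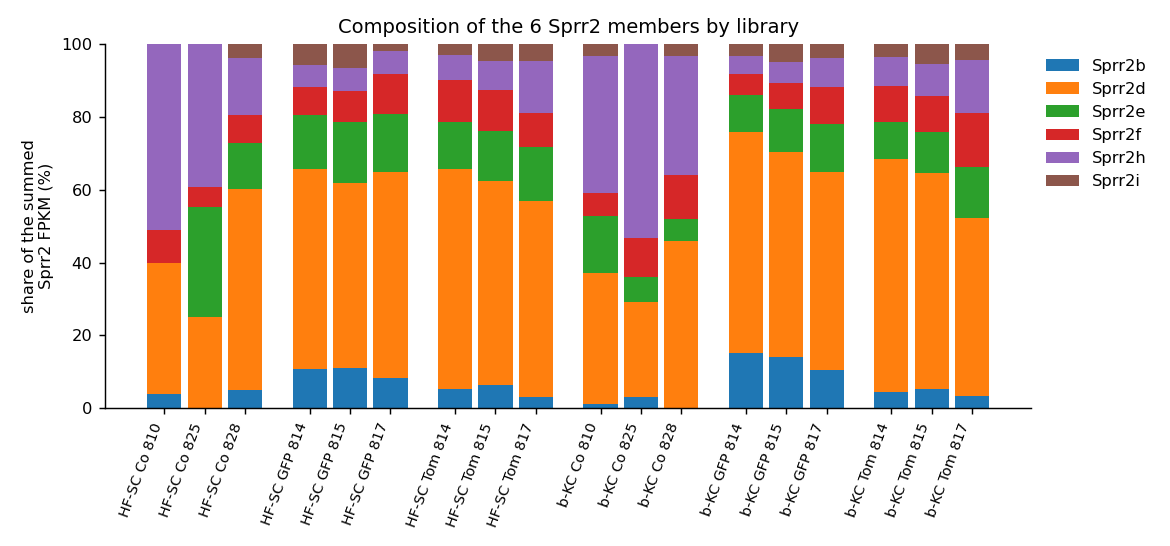
Share of each of the 6 Sprr2 members in their summed FPKM (vertical axis, %) in each of the 18 libraries (horizontal axis, group and mouse). Sprr2d gives 48.8% to 64.0% in DKO* libraries, Sprr2b takes a larger share in GFP than in Tom libraries, and Sprr2h takes its largest shares in the control libraries, whose summed levels are low.

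The GFP and Tom fractions of the same mice were compared directly. No member was called in HF-SCs, where 1.98% of all genes were called in either direction, and none in b-KCs, where 0.0863% were. By limma, 3 members in HF-SCs and 2 in b-KCs had an unadjusted p under 0.05, against 19.96% and 11.5% of all genes. Groups that did not overlap, in either direction, made up 18.6% of all genes in HF-SCs and 15.8% in b-KCs. In HF-SCs Sprr2b was the member whose GFP libraries (44.1 to 233 FPKM) did not overlap the Tom libraries (21.4 to 38.7) with the largest difference, a log2 fold change of 2.01 (95% interval 0.36 to 3.67; limma, adjusted p = 0.144). Sprr4 did not overlap either, with 0.73 to 2.71 in GFP and 0 to 0.34 in Tom (1.13 ± 0.41; limma, adjusted p = 0.113).

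Within mice, the direction in HF-SCs depended on the animal. The Sprr2 sum in GFP was 2.72 times that in Tom in mouse 814 and 3.42 times in mouse 815, but 0.779 times in mouse 817. Sprr1a gave ratios of 4.95, 4.88 and 0.739, and Sprr2i 5.26, 4.77 and 0.325. Of the 8 members with group means above Co in all DKO* groups, Sprr2b kept a higher level in GFP in every mouse, with ratios of 5.67, 6.01 and 2.06. Without mouse 817, 3 members were called higher in HF-SC GFP than in Tom, namely Sprr1a (log2 fold change 2.28; limma, adjusted p = 2.21e-05), Sprr2b (2.52; 6.87e-08) and Sprr2i (2.28; 4.71e-05), with 417 genes of the table called in all.

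In b-KCs the fractions were closer or Tom was higher. The Sprr2 sum in GFP was 0.965, 0.756 and 0.325 times that in Tom in mice 814, 815 and 817. Sprr2h was lower in GFP in all 3 mice, with 88.9, 101 and 19.8 FPKM against 148, 204 and 109, and the groups did not overlap (log2 fold change -1.38, 95% interval -2.71 to -0.05; limma, adjusted p = 0.403). Sprr2f had ratios of 0.553, 0.530 and 0.222 (-1.30; adjusted p = 0.257). Sprr2b again stood on the other side, with ratios of 3.21, 1.97 and 1.03.

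**Figure D5:**
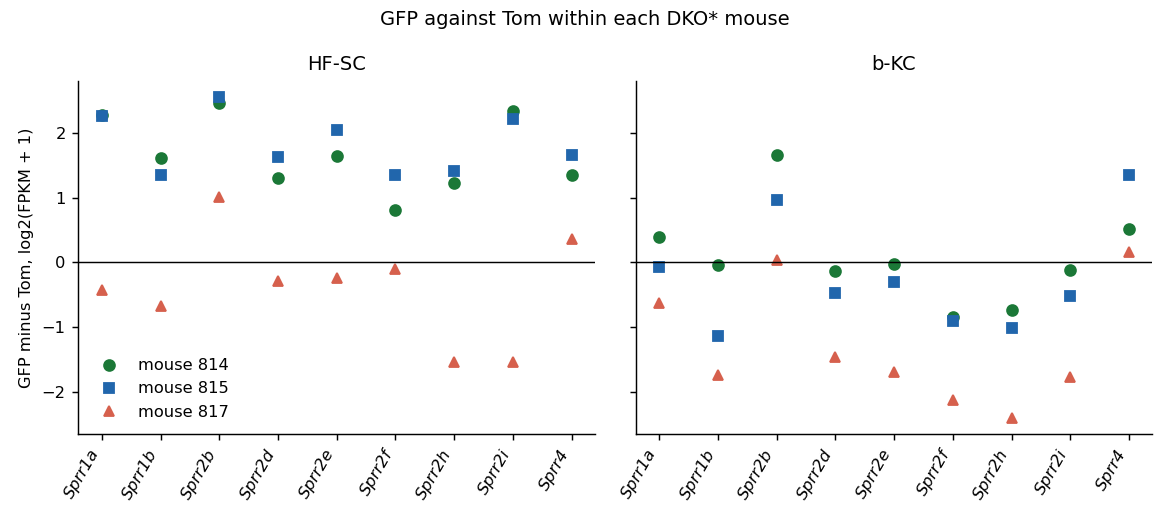
Difference between the GFP and Tom fraction of the same DKO* mouse in log2(FPKM + 1) (vertical axis) for the 8 members with group means above Co in all DKO* groups and Sprr4 (horizontal axis), in HF-SCs and b-KCs; each point is 1 mouse. In HF-SCs mice 814 and 815 are above 0 for all 9 genes and mouse 817 is below 0 for 7, and in b-KCs most points lie below 0 except those of Sprr2b and Sprr4.

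Mouse 817 was the lowest of 3 in HF-SC GFP and in b-KC GFP for all 8 of these members. The mean of the other mice was 2.83 to 12.2 times its level in HF-SC GFP. In b-KCs it was 4.44 to 9.92 times for GFP and 1.61 to 4.14 times for Tom. In HF-SC Tom it was lowest for 2 of the 8, with ratios of 0.512 to 1.81. Its GFP libraries had an implied 23750000 and 21300000 reads, within the range of the others. Jun was also lowest in those libraries, at 30.5 and 29.6 FPKM. The part of either in the Sprr levels was not tested. Across the 12 DKO* libraries, the deviations of the 8 members from their group means had pairwise Pearson correlations of 0.853 to 0.986 (median 0.951), a description over libraries that share 3 mice.

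The 2 cell types of control mice differed in the Sprr1 genes. In control mice Sprr1a was at 94.1, 66.2 and 75.0 FPKM in b-KCs against 13.3, 17.4 and 12.4 in HF-SCs, and Sprr1b at 30.5, 19.3 and 17.98 against 4.40, 3.20 and 1.501. Both were called higher in b-KCs, the only 2 members called, where 5.65% of all genes were called in either direction. The log2 fold changes were 2.37 ± 0.59 (limma, adjusted p = 0.00346) and 2.58 ± 0.62 (adjusted p = 0.00271). Both calls were lost on leaving out any 1 of the 3 control mice, with adjusted p of 0.0164 to 0.0386 for Sprr1a and 0.0177 to 0.0269 for Sprr1b. The groups did not overlap in either gene, as in 69.7% of all genes in either direction. An unadjusted p under 0.05 was found for 2 of the 9 members and for 57.5% of all genes, so the share of members was below that of all genes. The Sprr2 rows overlapped between the 2 control groups, and the log2 ratio of their summed means, b-KC over HF-SC, was 1.06 with all mice, -0.10 without mouse 810 and 2.10 without mouse 825.

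The change from Co to GFP was set against itself in the 2 cell types by an interaction term. No member passed, against 0.863% of all genes, and 2 of the 9 tested had an unadjusted p under 0.05 by limma, against 28.02% of all genes. These were Sprr1b, whose change was larger in HF-SCs by 2.97 on the log2 scale (95% interval 1.10 to 4.83; limma, adjusted p = 0.0371), and Sprr1a (2.49, 0.71 to 4.26; adjusted p = 0.0632). With the mouse as a random block Sprr1b passed (adjusted p = 0.00628), and without mouse 817 both did (limma, adjusted p = 0.00201 for Sprr1b and 2.21e-04 for Sprr1a). The GFP means were 206 FPKM in HF-SCs and 194 in b-KCs for Sprr1a, and 123 and 102 for Sprr1b. For the change from Co to Tom no member passed either, against 1.98% of all genes, and by limma 0 had an unadjusted p under 0.05, against 28.95% of all genes. The Sprr2 rows had interaction terms of 0.11 to 1.21 for GFP and -1.01 to -0.54 for Tom, with intervals that all included 0.

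Of 16 other envelope precursors and cross-linkers in the table, 5 were called higher and 0 lower in mutant HF-SCs (median log2 fold change 1.03), and 1 and 0 in non-mutant HF-SCs (-0.20). In mutant b-KCs 0 were called higher and 2 lower (-0.21), and in non-mutant b-KCs 0 and 3 (-0.53). Over all genes tested 0.635% were called lower in HF-SC GFP and 0.478% in HF-SC Tom, and in b-KCs 0.588% for GFP and 1.51% for Tom. In HF-SC GFP the largest were Cnfn, a small envelope protein (4.62 ± 0.78; limma, adjusted p = 2.62e-04), the cross-linking enzyme Tgm1 (3.48 ± 0.51; 8.12e-05), involucrin, Ivl (3.03 ± 0.45; 9.25e-05), and Casp14, a protease of cornification (2.84 ± 0.61; 0.00178). Cnfn was also called in HF-SC Tom (2.94 ± 0.78; limma, adjusted p = 0.00650). Loricrin, Lor, the main envelope protein, was called lower in b-KC GFP (-2.48 ± 0.50; limma, adjusted p = 0.00142) and in the Tom fraction (-3.41 ± 0.50; 8.06e-05). Flg2, a filaggrin-like protein, was lower in both (-2.06 and -2.29), and Cdsn, an adhesion protein of corneocytes, in b-KC Tom (-2.98 ± 0.57). In control b-KCs against control HF-SCs 4 of the list were higher and 1 lower (among them Tgm3 3.24, Krtdap 2.96, Casp14 2.72 and Tgm5 -5.45), with a list median of 1.56 against 0.06 for all genes.

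The 18 late cornified envelope genes, another family of small envelope proteins of the same complex, went both ways. In HF-SC GFP 3 were called higher, Lce3a (3.94 ± 0.91), Lce3b (3.89 ± 0.99) and Lce3f (3.30 ± 0.81), and 1 lower, Lce1m (-2.58 ± 0.53), with a list median of 0.13. In HF-SC Tom 0 were higher and 3 lower, Lce1m (-3.31), Lce1l (-2.10) and Lce1c (-2.03), with a median of -1.13. Lce1m was the 1 gene called in b-KCs, lower in GFP (-2.85) and in Tom (-3.55). The Lce genes are close paralogs, so the split of reads among them is uncertain too.

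The stress keratins, which keratinocytes make after injury, were called higher for 2 of 4 genes in non-mutant HF-SCs and for 3 of 4 in each of the other comparisons with Co (list medians 2.96 to 4.49). Krt6b was called in all 4 comparisons, with log2 fold changes of 7.73 ± 0.76 (GFP) and 6.75 ± 0.76 (Tom) in HF-SCs and 5.84 ± 0.76 and 5.94 ± 0.76 in b-KCs. Krt16 was called in both HF-SC fractions (5.27 and 5.53) and in b-KC Tom (4.25). Krt16 was also the gene whose levels over the 18 libraries were most like those of Sprr1b (Pearson r = 0.973, a description over libraries that share mice).

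Of the 17 transcription factors listed, known at Sprr promoters or in late differentiation, 5 were called higher and 2 lower in mutant HF-SCs, 2 and 0 in non-mutant HF-SCs, and 1 and 2 in each b-KC fraction. Ehf, an epithelial Ets factor, was called higher in all 4 comparisons, by 4.49 ± 0.19 (GFP) and 3.95 ± 0.19 (Tom) in HF-SCs and by 2.27 ± 0.19 and 2.30 ± 0.19 in b-KCs. Its FPKM was 1.76 to 3.38 in HF-SC Co and 16.4 to 20.5 in b-KC Co, and 50.4 to 122 in the DKO* libraries. Grhl3, a grainyhead-like factor of barrier formation, was higher in HF-SC GFP (3.32 ± 0.34), and Elf3, another epithelial Ets factor, in HF-SC GFP (3.14 ± 0.29) and Tom (2.51 ± 0.29). Jun was lower in GFP by -4.07 ± 0.40 in HF-SCs and -4.30 ± 0.40 in b-KCs. In b-KC Tom the AP-1 genes Fos (-2.19 ± 0.40) and Fosb (-2.35 ± 0.43) were lower.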

How the data were processed

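Sorted ear-skin populations were sequenced as non-directional 51-base single-end reads. Per the study's methods, the authors aligned them to NCBI37/mm9 with TopHat 2.0.10 and Bowtie 1.0.0, allowing 2 mismatches and multiple hits, and the deposited FPKM values, 1 per gene and library, come from Cufflinks (2.2.1 in the submitters' processing notes). FPKM are not counts, so no count test was run. Without strand information overlapping and antisense genes cannot be told apart.

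From the FPKM of all 18 columns, log2(FPKM + 1) was fitted with limma 3.58.1 in R 4.3.3 (1 mean per group, eBayes with a trend, two-sided) after a filter of 1 FPKM in 3 libraries, and p-values were adjusted over 12751 genes in each comparison. Calls needed an adjusted p under 0.01 and a log2 fold change of 2 in size. Positions, transcripts and promoters came from NCBIM37, GENCODE M1 and RefSeq (GRCm38.p6), compared with Python 3.11.15, Biopython 1.88 and pandas 2.3.3. The study's methods name an iGenomes annotation, so the transcripts behind the FPKM may differ from those of GENCODE M1. Identity came from global alignments. Named are all members, up to 4 called genes of each list with the largest fold changes, the neighbours and the genes most alike. The members and lists were chosen with earlier results of these data known. The fit was tested on simulated data.

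The mouse numbers in the labels show that GFP and Tom fractions, and both cell types, came from the same animals. The correlation of same-mouse deviations was at least 0.0838, and alternatives took the mouse as a random or a fixed block. Animals of a group are separate mice, 3 in each.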

Additional observations from a re-analysis of the deposited data

How the results depend on the processing

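Of 990 values of single members under the alternatives, 952 kept their direction and their side of the threshold, 16 lost and 7 gained a call, and 15 changed sign, none of them called in either fit. A pseudocount of 0.1 turned Sprr4 in the change from Co to Tom, HF-SC minus b-KC, from 0.29 to -0.29 and Sprr2b in b-KC Co against HF-SC Co from 0.000601 to -0.00401, and upper-quartile rescaling turned the latter to -0.0139. Leaving out a mouse changed a sign within these ranges: Sprr4 in HF-SC GFP against Co (-0.11 to 0.58); Sprr2b (-0.0728 to 0.12), Sprr2d (-0.11 to 1.28) and Sprr2e (-0.69 to 0.89) in b-KC Co against HF-SC Co; Sprr2h in HF-SC GFP against Tom (-0.16 to 1.32); Sprr1a in b-KC GFP against Tom (-0.35 to 0.16); Sprr2b in the change to GFP, HF-SC minus b-KC (-0.20 to 0.31); and Sprr4 (-0.34 to 0.79), Sprr2d (-1.25 to 0.14) and Sprr2h (-1.09 to 0.22) in that to Tom. Neither a pseudocount of 0.1, a log2 threshold of 1, eBayes without a trend, a fit restricted to the compared groups nor rescaling to an equal upper quartile changed the call of a member. That rescaling moved the median log2 fold change of all genes most for b-KC Co against HF-SC Co, from 0.06 to -0.10. Without the filter, Sprr1a in HF-SC Tom was not called (log2 fold change 2.13; limma, adjusted p = 0.0168). With the mouse as a random replicate block (estimated correlation 0.274) the members called in the change from Co to GFP, HF-SC minus b-KC, went from 0 to 1 (Sprr1b). The random block changed no other call of a member. The fixed block was fitted only to the comparisons of GFP with Tom (18 values) and changed no call there. Leaving out a mouse gave 0 members in each case for b-KC Co against HF-SC Co, against 2 with all mice, 0 to 3 for HF-SC GFP against HF-SC Tom and 0 to 2 for the change from Co to GFP, HF-SC minus b-KC. Against Co, the counts were 8 for GFP and 7 for Tom in HF-SCs and 6 to 7 for either fraction of b-KCs. No member was at 0 beside libraries of 10 FPKM or more, so treating such zeros as missing gave no value. Control levels of Sprr2b, Sprr2i and Sprr3 lay near or under the level of 3 reads in most libraries, so differences among them were not detectable at this depth. For the other members the 3 mice of a group limit the precision.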

Other observations

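The 5 genes outside the 10 members whose log2(FPKM + 1) over the 18 libraries was most like the mean of the 9 tested members were Klk13, an epidermal kallikrein protease (Pearson r = 0.988), Sprr2g (0.988), the pseudogene Sprr2j-ps (0.984), Tmigd1 (0.981) and Ankk1 (0.978). These correlations rest on 18 libraries of 6 mice and are descriptions. Klk13 was at 0.09 to 0.32 FPKM in HF-SC Co and 0.34 to 1.79 in b-KC Co. It was at 27.1 to 103 in HF-SC GFP, 20.5 to 34.9 in HF-SC Tom, 14.9 to 154 in b-KC GFP and 25.0 to 105 in b-KC Tom, above every Co library. Uox, urate oxidase, was the gene most like Sprr2b (r = 0.989), at 0 to 0.27 in the control libraries and 25.1 to 266 in the DKO* libraries. Trex2, a DNA exonuclease of keratinocytes, was most like Sprr1a (r = 0.963), and for Sprr4 the highest value was 0.802, with Dnase2a.

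Of 7 other genes of the table that lie in or beside the cluster, 5 were tested. Sprr2g, between Sprr2f and Sprr2h, was called higher in HF-SC GFP (log2 fold change 5.79 ± 0.65), HF-SC Tom (4.83 ± 0.65), b-KC GFP (4.19 ± 0.65) and b-KC Tom (5.53 ± 0.65) by limma, and so was Sprr2j-ps (5.53, 4.38, 4.49 and 5.40). Sprr2k was called in HF-SC GFP (3.72), HF-SC Tom (4.02) and b-KC Tom (3.95), and had 1.99 in b-KC GFP. Ivl, on the far side of Sprr4, was called in HF-SC GFP (3.03 ± 0.45) among these comparisons, and in b-KC Tom it was at 9.93 to 12.4 FPKM against 15.6 to 26.4 in b-KC Co. Sprr2a2 gave 0.61 to 1.49 in the 4 comparisons and was not called. Smcp, next to Ivl, stayed at or below 0.34 FPKM in all 18 libraries and was not tested.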
